A study of Yarrowia lipolytica with 35 samples.

Results

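Yarrowia lipolytica is an oleaginous yeast that grows on glucose, glycerol, alkanes and fatty acids. The genes described here are 45 of the 71 that carry a symbol in place of a locus tag in the submitters' table of log2 expression values, among 7132 genes counted by RNA sequencing. They were chosen by their names, with earlier results of these data known. For this, 26 other symbols of that table, such as TUP1, RIM101 and MHY1, were set aside. The basis on which the submitters gave symbols is not stated in the sources used here. Most of the 45 symbols are names of transcription regulators. Among the others, KAP122 is a nuclear import receptor, OTU1 a deubiquitinating enzyme, PRP9 a splicing factor, NPR2 part of a complex that restrains the kinase complex TORC1, and PTR3 part of an amino acid sensor, all as known in baker's yeast. The 45 are therefore called symbol-named genes here.

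The strains DSM-21175 and DSM-3286 were grown in bioreactors with glycerol or glucose as the only carbon source. In both strains and on both carbon sources, cells were collected in stationary phase under nitrogen limitation after 32 h at pH 3.5 and at pH 5.5, and in growth phase at pH 5.5 only, after 8 h on glycerol and after 12 h on glucose. This gives 12 groups of 3 biological replicates, of which one, the stationary pH 5.5 cultures of DSM-3286 on glucose, has only 2, and 35 libraries in all. The 12 groups are the strains crossed with glycerol and glucose and with stationary phase at pH 3.5, stationary phase at pH 5.5 and growth phase at pH 5.5. In growth phase carbon source and hour of sampling cannot be told apart, and phase goes with hour in every comparison of phases. No gene was deleted or added in either strain as far as the labels say, and how the strains differ genetically is not given in the sources used here.

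A transcription regulator binds DNA near its target genes, alone or with partners, and raises or lowers their transcription; many act downstream of a nutrient or stress signal and are controlled as proteins as well as through their RNA. In yeasts, GATA zinc finger factors set the use of nitrogen sources, Gcn4 drives amino acid synthesis, Cat8, Rds2 and Ert1 serve growth on carbon sources other than sugar, and Hsf1, Skn7, Crz1, Rlm1 and Rpn4 answer damage to proteins, oxidation, calcium or the cell wall. When nitrogen runs out while carbon remains, Y. lipolytica stops dividing and turns carbon into lipid, citrate or polyols. Most roles given below are known from baker's yeast, Saccharomyces cerevisiae, and were not tested in these cells; roles known from Y. lipolytica are named as such.

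Library totals ran from 6704058 to 25702157 counted reads, with a median of 12546196. The symbol-named genes took 0.434 to 0.661% of the reads in stationary phase at pH 3.5, 0.566 to 0.764% in stationary phase at pH 5.5 and 0.352 to 0.455% in growth phase. Reads in noncoding genes took 0.0195 to 0.0647%, 0.0509 to 0.215% and 0.0419 to 0.0979% of the same libraries, so that share differs between these groups too; its part in the results was not tested. In 5 groups of DSM-21175, 1 library correlated less with its replicates than they did with each other: replicate 3 of stationary glycerol cultures at either pH, replicate 2 of growing glycerol cultures, and replicate 3 of glucose cultures, both growing and stationary at pH 5.5. Over all genes tested, pairs with 1 of these 5 libraries had Pearson correlations of 0.969 to 0.984 (10 pairs, a description over genes), against 0.979 to 0.996 in the 24 other replicate pairs. Those 24 include stationary DSM-3286 cultures at pH 5.5, whose pairs were also low (0.9787 to 0.9792 on glycerol and 0.9805 on glucose) with no single library apart. They stayed in, and "the 5 libraries" below are those of DSM-21175. Counts and named changes were also computed without these 5 libraries.

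Levels are FPKM, reads scaled for gene length and for library depth, taken back from the deposited log2(FPKM + 1) values. Most symbol-named genes were expressed below the median of all genes tested: the median of their mean levels over the 12 groups was 29.1 FPKM, against 40.0 FPKM for all genes tested, and 14 of 45 lay above the latter. The highest were GCN4 (YALI0E27742g), the activator of amino acid synthesis genes, with a mean of 1100 FPKM, RPN4 (YALI0F25861g), the activator of proteasome genes, with 376 FPKM, and MCM1 (YALI0C06842g), a MADS-box factor of the cell cycle and of arginine control, with 334 FPKM. The lowest were ECM5 (YALI0C16390g), a chromatin protein with a JmjC domain, with 7.59 FPKM, MGF1-like (YALI0B19602g) with 7.30 FPKM and YHP1 (YALI0E15510g), a homeobox repressor that acts beside Mcm1 in baker's yeast, with 3.44 FPKM. The distance between the highest and the lowest group mean had a median of 1.48 on the log2(FPKM + 1) scale, against 1.79 for all genes. As a fold, the narrowest was ECM5, whose highest group mean was 1.63 times its lowest, and GCN4, the most abundant, had 1.81 times.

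**Figure D1:**
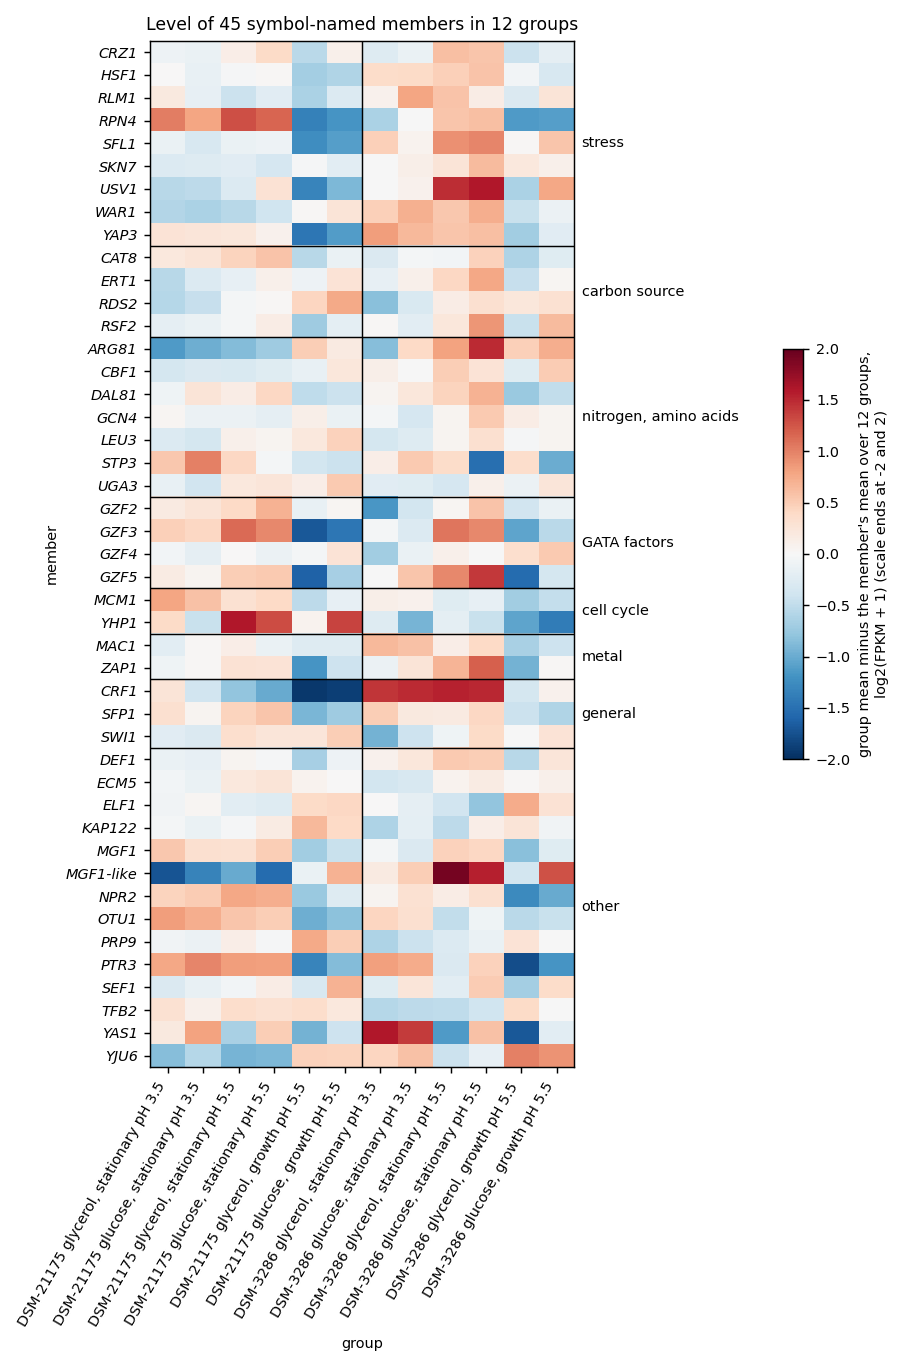
Heat map of the 45 symbol-named genes (rows, grouped by role) in the 12 groups (columns, DSM-21175 left and DSM-3286 right). Colour is the group mean of log2(FPKM + 1) minus the gene's mean over the 12 groups, so red is above and blue below the gene's own average. ARG81, CRF1, MGF1-like and USV1 are blue in most DSM-21175 groups and red in several DSM-3286 groups, and GZF3, GZF5, PTR3 and RPN4 are bluest in growth phase.

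A gene was called changed where its adjusted p was under 0.05 in edgeR's quasi-likelihood test, fitted on the raw counts of all 35 libraries with Benjamini-Hochberg adjustment over the 6537 genes tested; all 45 symbol-named genes were tested. Changes are log2 fold changes ± SE, each the mean over the strata of the comparison (2 strata in growth phase, 4 in stationary phase and between phases, 6 between strains).

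Between phases at pH 5.5, more of the symbol-named genes were higher in stationary phase than lower: 26 were higher, 9 lower and 10 did not pass. That is 77.8% called, against 86.1% of all genes, where calls were split evenly between higher (42.9%) and lower (43.2%). The median change was 0.49 for the symbol-named genes and 0.01 for all genes. At least 2-fold changes were called for 11 genes upward and 1 downward; 37.2% of all genes were called at that size. The 11 were the GATA factor genes GZF3 and GZF5, RPN4, YHP1, PTR3, CRF1, NPR2, USV1, YAP3, ZAP1 and SFP1, and the 1 was YJU6. The YHP1 change, with few reads in some libraries, was positive in all 4 strata but called in 0 of them.

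Between pH values in stationary phase, 11 of the 45 were higher at pH 3.5, 30 were lower and 4 did not pass. That is 91.1% called, against 68.5% of all genes, where calls were again split evenly between higher (34.2%) and lower (34.3%). The median change was -0.27, against -0.01 for all genes. Most changes were small, and 4 reached 2-fold, against 7.65% of all genes: YAS1 upward, and YHP1, MGF1-like and USV1 downward. YHP1 and MGF1-like, both with few reads in some libraries, were each called in 1 of 4 strata.

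Between strains, 15 were higher in DSM-21175, 19 lower and 11 did not pass, which is 75.6% called against 80.4% of all genes (43.0% higher and 37.5% lower). The median was -0.06, against 0.03 for all genes. The 2-fold calls, made for 17.5% of all genes, were YHP1 upward and MGF1-like, CRF1, USV1, SFL1 and ARG81 downward.

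Between carbon sources in growth phase, 7 of the 45 were higher on glycerol, 22 lower and 16 did not pass, which is 64.4% called against 62.6% of all genes. Of all genes, 31.8% were called higher and 30.7% lower. The median was -0.21 for the symbol-named genes and -0.01 for all genes. Calls of at least 2-fold, made for 15.1% of all genes, were 4 downward: MGF1-like, GZF5, YAS1 and SEF1. Of these, MGF1-like and YAS1 were each called in 1 of 2 strata. In stationary phase the same contrast gave 4 higher, 13 lower and 28 not passing, 37.8% called against 43.2% of all genes (22.2% higher and 21.0% lower). No call of the 45 reached 2-fold there, against 4.74% of all genes. The 4 higher calls were STP3, CRF1, GZF3 and SFL1, and the last 3 passed narrowly, with adjusted p of 0.0482, 0.041 and 0.0341 in edgeR's test with Benjamini-Hochberg adjustment. CRF1, GZF3 and SFL1 did not pass on leaving out any of 29, 17 and 12 of the 35 libraries, 1 at a time, and neither CRF1 nor GZF3 passed with limma on the deposited log2 values (adjusted p of 0.109 and 0.0681). CRF1 did not pass with a replicate block (0.25, adjusted p = 0.0607), RLE scaling (0.0505), no filter on low counts (0.0544) or only the libraries compared (0.107) in edgeR's test with Benjamini-Hochberg adjustment. STP3 (0.42 ± 0.11) was called in 1 of its 4 strata, DSM-3286 at pH 5.5 (2.06), where the 2 glucose libraries were low, and at pH 3.5 its estimates were -0.48 and -0.39 (not passing). Without the 5 libraries that correlated less, these counts were 8 higher and 26 lower in growth phase and 6 higher and 17 lower in stationary phase.

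**Figure D2:**
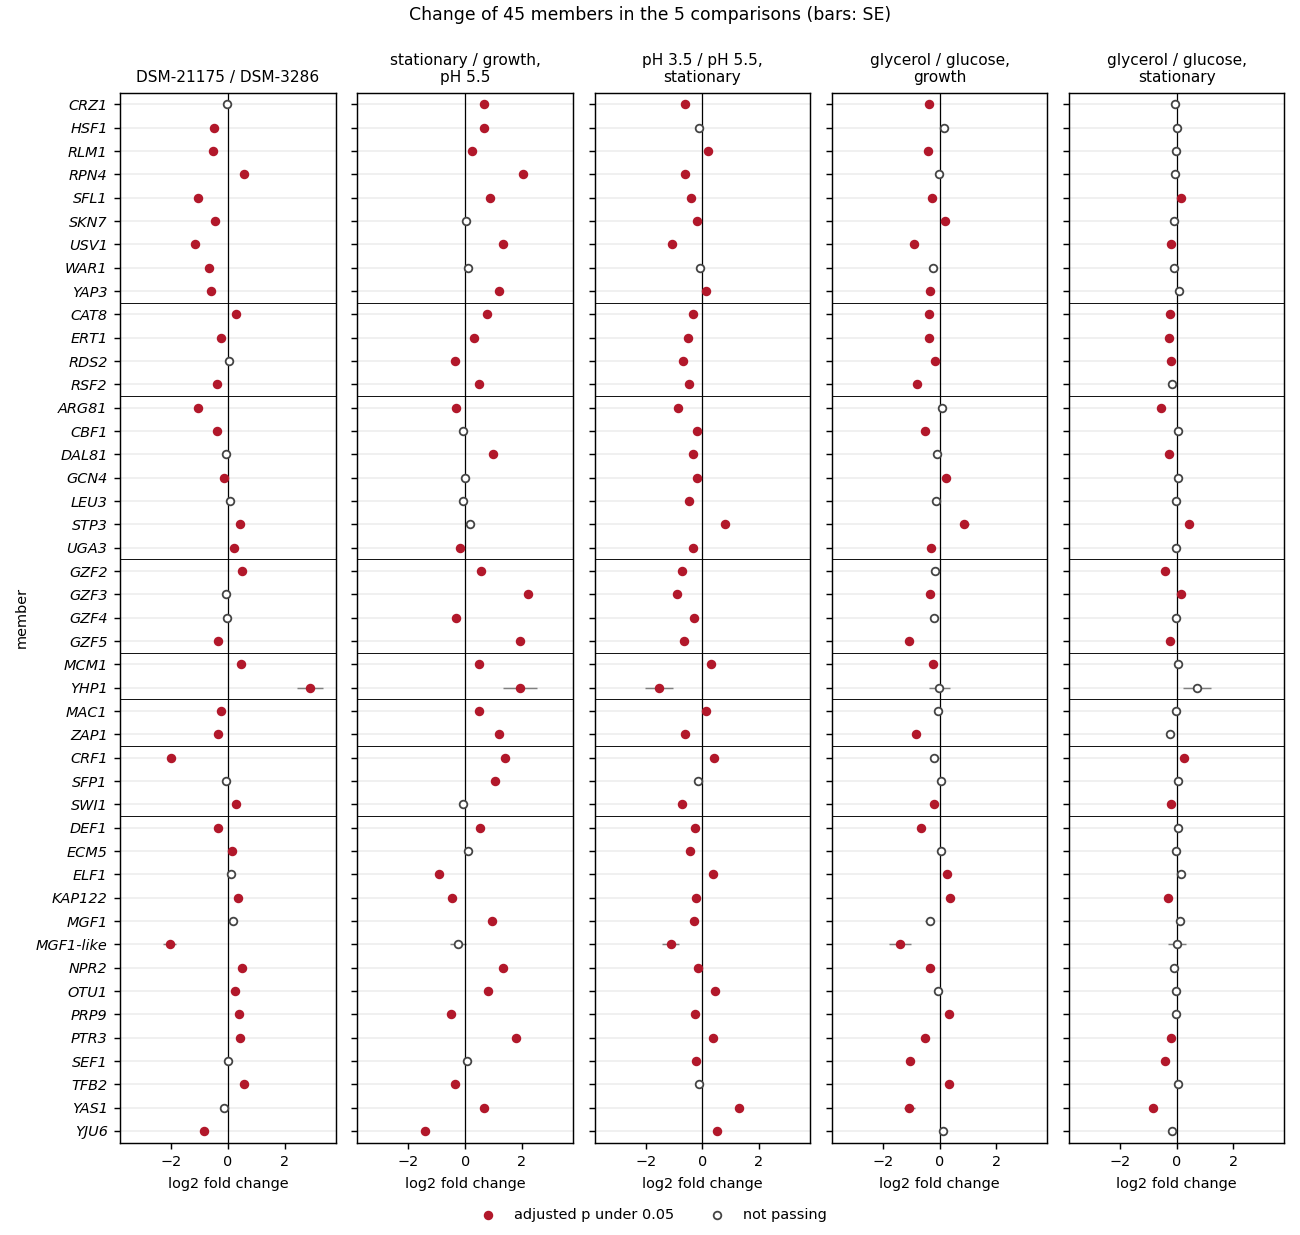
Log2 fold changes (x axis) of the 45 symbol-named genes (rows, grouped by role) in the 5 comparisons (panels); points are edgeR estimates, bars are SE, and filled points passed at an adjusted p under 0.05. Most filled points of the stationary against growth panel lie to the right of 0 and most of the pH 3.5 against pH 5.5 panel to the left, and no filled point of the stationary glycerol against glucose panel reaches 1 or -1.

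Of the 5 comparisons, phase gave the largest absolute change for 22 of the 45 symbol-named genes (48.9%, against 51.8% of all genes), strain for 9 (20%, against 20.9%), pH for 8 (17.8%, against 9.94%) and carbon source in growth phase for 6 (13.3%, against 15.1%). Carbon source in stationary phase was the largest for 0 of 45 and for 2.29% of all genes. The 26 symbols set aside had other counts, with 13 higher and 10 lower between phases, 7 higher and 14 lower at pH 3.5, and 10 higher and 15 lower in DSM-21175; whether the sets differ was not tested.

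Stress regulators were mostly higher in stationary phase and mostly lower in DSM-21175. Of 9, 7 were higher in stationary phase, 0 lower and 2 did not pass (42.9% of all genes were called higher), with a median of 0.68. In DSM-21175, 1 was higher, 7 were lower and 1 did not pass (37.5% of all genes were called lower), with a median of -0.54. These are averages over strata. The RLM1 rise in stationary phase was called in 1 of 4 strata. WAR1, among the 7 lower in DSM-21175, was called lower there in 4 strata and higher in 2. At pH 3.5, 2 of the 9 were higher and 5 lower (34.2% and 34.3% of all genes).

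RPN4, whose product in baker's yeast raises proteasome genes, had 759, 698 and 770 FPKM on glycerol and 703, 703 and 643 FPKM on glucose in stationary phase at pH 5.5 in DSM-21175, against 140, 120 and 101 FPKM and 149, 137 and 118 FPKM in growth phase. DSM-3286 had 451, 454 and 439 FPKM on glycerol and 448 and 477 FPKM on glucose in stationary phase, against 142, 138 and 134 FPKM and 143, 143 and 138 FPKM in growth phase. Every stationary library at pH 5.5 lay above every growth library, and within stationary phase every DSM-21175 library lay above every DSM-3286 library. The change with phase was 2.06 ± 0.06 (edgeR, Benjamini-Hochberg adjusted p = 1.52e-23), larger in DSM-21175 by 0.80 ± 0.11 (adjusted p = 8.84e-07). At pH 3.5 RPN4 was lower (-0.61 ± 0.06); the largest drop was in DSM-3286 on glycerol, with 222, 216 and 159 FPKM at pH 3.5 against the values above at pH 5.5, and the fall was smaller in DSM-21175 by 0.63 ± 0.11 (edgeR, Benjamini-Hochberg adjusted p = 7.67e-05). In growth phase the strains overlapped.

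USV1 (YALI0B22176g), a zinc finger factor tied to nutrient stress in baker's yeast, was called in all 5 comparisons. The smallest change was that with carbon source in stationary phase (-0.2 ± 0.06), called in 1 of 4 strata. On glucose USV1 had 21.6, 23.9 and 22.9 FPKM in stationary phase at pH 5.5 and 10.3, 10.2 and 8.13 FPKM in growth phase in DSM-21175. In DSM-3286 on glucose it had 57.9 and 57.9 FPKM in stationary phase at pH 5.5 and 30.8, 34.3 and 31.4 FPKM in growth phase. The strains did not overlap in any of these groups, with DSM-21175 lower each time. Over all 6 strata the strain change was -1.16 ± 0.05, and each stratum was called, with DSM-21175 lower by 0.57 to 1.82 on the log2 scale. On glycerol in growth phase USV1 had 6.46, 6.31 and 7.57 FPKM in DSM-21175 and 10, 14.1 and 11 FPKM in DSM-3286, which is a change against glucose of -0.44 in DSM-21175 and of -1.38 in DSM-3286. That difference of 0.94 ± 0.18 was called (edgeR, Benjamini-Hochberg adjusted p = 0.000475). USV1 was lower at pH 3.5 (-1.07 ± 0.06), changing by -0.84 on glucose and -0.29 (not passing) on glycerol in DSM-21175 and by -1.61 and -1.54 in DSM-3286, a difference between strains of 1.01 ± 0.12.

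SFL1 (YALI0D04785g), a repressor of flocculation genes in baker's yeast, ranged from 7.69 to 22.9 FPKM in DSM-21175 (median 17.9 FPKM, n = 18) and from 19.4 to 46.5 FPKM in DSM-3286 (median 30.6 FPKM, n = 17). It was lower in DSM-21175 in each of the 6 strata (-1.07 ± 0.05 on average) and higher in stationary phase by 0.87 ± 0.06. YAP3 (YALI0D09757g), a bZIP factor of the AP-1 family, was likewise lower in DSM-21175 in all strata (-0.59 ± 0.03) and higher in stationary phase (1.21 ± 0.04), with 183 to 279 FPKM in stationary phase at pH 5.5 and 63.4 to 169 FPKM in growth phase. HSF1 (YALI0E13948g), the heat shock factor, was lower in DSM-21175 in all strata too (-0.49 ± 0.05) and higher in stationary phase (0.65 ± 0.06), and did not pass in the other comparisons. SKN7 (YALI0D14520g), of the oxidative stress response, was lower in DSM-21175 in all strata (-0.45 ± 0.04).

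WAR1 (YALI0E10681g), the regulator of weak acid resistance in baker's yeast, changed with phase in opposite directions in the strains. In DSM-21175 it had 7.57, 6.16 and 8.85 FPKM on glycerol and 8.58, 7.82 and 8.99 FPKM on glucose in stationary phase at pH 5.5, against 10.9, 13.7 and 10.4 FPKM and 13.1, 11.7 and 17.1 FPKM in growth phase. DSM-3286 had 15.9, 18 and 16.9 FPKM on glycerol and 20.4 and 18.6 FPKM on glucose in stationary phase, against 8.65, 6.57 and 9.20 FPKM and 11, 9.70 and 10.6 FPKM in growth phase. Stationary libraries were all below growth libraries in DSM-21175 and all above them in DSM-3286 on the same carbon source. Each of the 4 strata was called (-0.69 and -0.73 in DSM-21175, 0.96 and 0.90 in DSM-3286), and the difference between strains was -1.63 ± 0.18 (edgeR, Benjamini-Hochberg adjusted p = 7.49e-09). The mean over strata, 0.11 ± 0.09, did not pass. WAR1 did not pass between pH values either (-0.09 ± 0.09, adjusted p = 0.389 in edgeR's test with Benjamini-Hochberg adjustment).

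RLM1 (YALI0F18788g), the MADS-box factor of the cell wall integrity pathway, was lower in DSM-21175 (-0.54 ± 0.06). In DSM-3286 it had 20.7, 23.1 and 25.7 FPKM at pH 3.5 and 34.8, 29.3 and 33.5 FPKM at pH 5.5 on glycerol, but 40.4, 38.1 and 36.0 FPKM at pH 3.5 and 25 and 23.3 FPKM at pH 5.5 on glucose. The groups did not overlap on either carbon source, and they were called in opposite directions (-0.48 and 0.61); over both strains the difference between carbon sources in the pH change did not pass (-0.26 ± 0.14), nor did that between strains (0.30 ± 0.14). CRZ1 (YALI0D01463g), the calcineurin-controlled factor, was lower at pH 3.5 (-0.60 ± 0.08) and higher in stationary phase (0.68 ± 0.08).

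**Figure D3:**
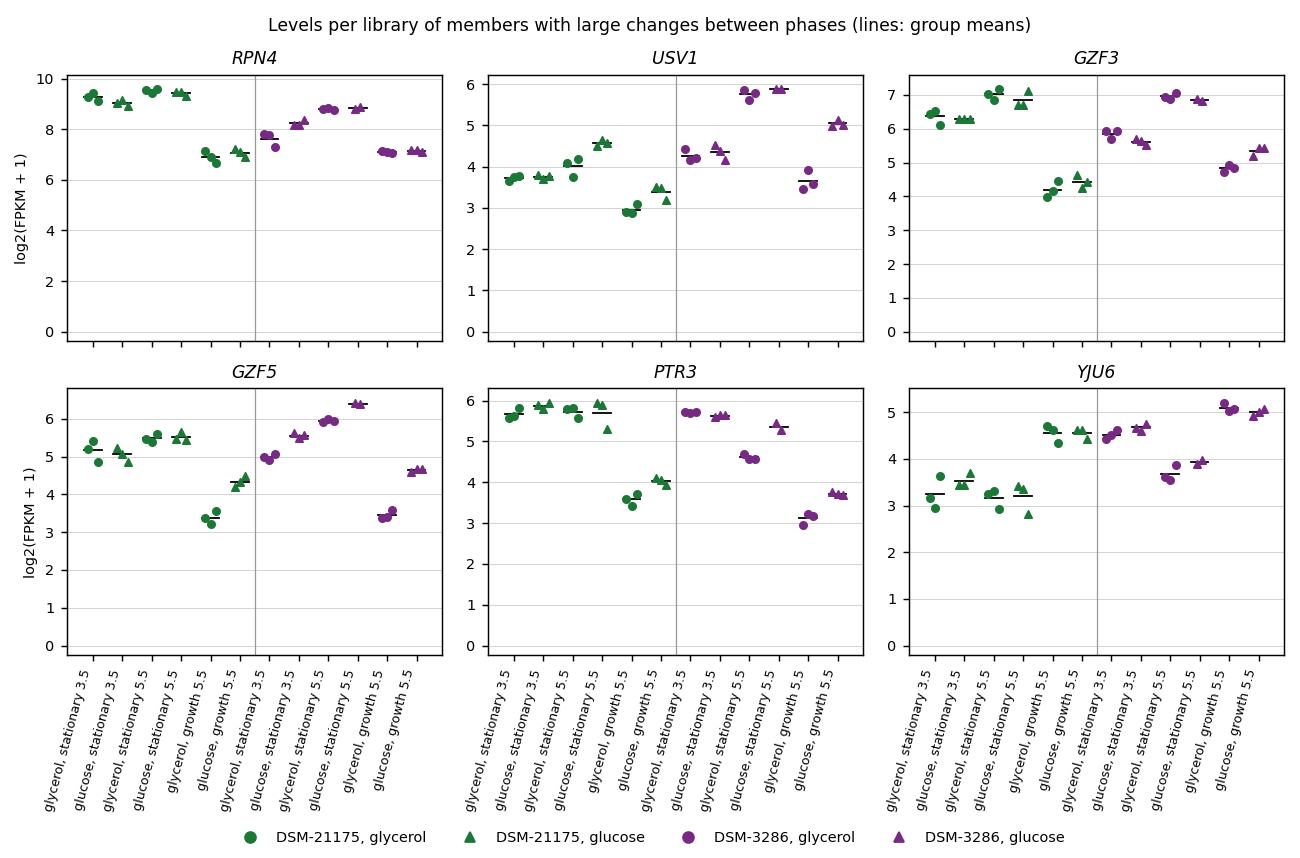
Levels per library, as log2(FPKM + 1), of RPN4, USV1, GZF3, GZF5, PTR3 and YJU6 in the 12 groups; green is DSM-21175 and purple DSM-3286, circles are glycerol and triangles glucose, and lines are group means. In RPN4, GZF3, GZF5 and PTR3 every stationary library at pH 5.5 lies above every growth library, and in YJU6 every one lies below.

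Averaged over strata, all 4 regulators of carbon source use were lower on glycerol than on glucose in growth phase (30.7% of all genes were called lower). All 4 were also lower at pH 3.5 than at pH 5.5 (34.3% of all genes were). The RDS2 change in growth phase was called in 1 of 2 strata, and the RSF2 change with pH in 1 of 4. In DSM-3286 RDS2 had 63.9, 59.1 and 63.4 FPKM on glycerol and 65.7, 68.1 and 64.8 FPKM on glucose in growth phase. RSF2 (YALI0D18678g), a factor for growth on glycerol and respiration in baker's yeast, had 7, 6.84 and 8.58 FPKM on glycerol and 11.7, 9.85 and 11.7 FPKM on glucose in growth phase in DSM-21175. DSM-3286 had 7.69, 10.5 and 9.48 FPKM on glycerol and 19.4, 20.6 and 21.2 FPKM on glucose. Glycerol libraries lay below glucose libraries in both strains, and the change was -0.79 ± 0.10 (edgeR, Benjamini-Hochberg adjusted p = 5.43e-08). ERT1 (YALI0E18304g), CAT8 (YALI0D20460g) and RDS2 (YALI0E10087g), which serve gluconeogenesis in baker's yeast, were lower on glycerol in growth phase by -0.39 ± 0.06, -0.37 ± 0.08 and -0.15 ± 0.05. Averaged over strata, these 3 were also lower on glycerol in stationary phase, by -0.29 ± 0.05, -0.24 ± 0.05 and -0.21 ± 0.04. The CAT8 and RDS2 changes there were each called in 1 of 4 strata. ERT1 was the only one of the 45 called the same way in all 4 strata of that comparison (1.27% of all genes were called lower in all 4).

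With pH, RDS2 showed the largest change of the list: on glycerol it had 37.3, 36.5 and 32.4 FPKM at pH 3.5 and 50.6, 49.2 and 56.3 FPKM at pH 5.5 in DSM-21175, and 28.7, 30.6 and 29.3 FPKM at pH 3.5 and 56.7, 56.7 and 63.4 FPKM at pH 5.5 in DSM-3286. The pH groups did not overlap, and the change over 4 strata was -0.67 ± 0.04. Between phases the list was mixed, with RSF2, CAT8 and ERT1 higher in stationary phase (0.49 ± 0.07, 0.77 ± 0.06 and 0.32 ± 0.05) and RDS2 lower (-0.36 ± 0.04). For ERT1 the strata of the strain comparison were called in opposite directions: DSM-21175 was higher in growth phase (0.33 on glycerol and 0.23 on glucose) and lower in all 4 stationary strata (-0.34 to -0.71). RDS2, which 1 coding gene separates from the elongation factor gene ELF1 in the RefSeq gene order, was higher in DSM-21175 in growth phase on glucose (0.43) and at pH 3.5 on glycerol (0.28), and lower in stationary phase at pH 5.5 (-0.19 and -0.33).

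Among 7 regulators of nitrogen and amino acid use, ARG81 (YALI0D09647g), which with Mcm1 controls arginine metabolism in baker's yeast, differed most between the strains. In stationary phase at pH 5.5 ARG81 had 16.9, 16.1 and 15.9 FPKM on glycerol and 17.6, 17.8 and 20 FPKM on glucose in DSM-21175. DSM-3286 had 57.1, 53.2 and 52.8 FPKM on glycerol and 90.8 and 84.6 FPKM on glucose under the same conditions. In growth phase the values were 45.5, 43.3 and 41.5 FPKM on glycerol and 38.4, 35.8 and 30.6 FPKM on glucose in DSM-21175, and 45.9, 38.1 and 44.9 FPKM on glycerol and 51.3, 48.5 and 53.9 FPKM on glucose in DSM-3286. The strains thus overlapped on glycerol in growth phase (-0.03, not passing) and were farthest apart on glucose in stationary phase at pH 5.5 (-2.27).

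From growth to stationary phase, ARG81 changed by -1.47 on glycerol and -0.92 on glucose in DSM-21175 and by 0.25 and 0.77 in DSM-3286, all called. The difference between strains was -1.71 ± 0.09 (edgeR, Benjamini-Hochberg adjusted p = 7.85e-16). At pH 3.5 ARG81 had 14.8, 12.9 and 12.6 FPKM on glycerol and 15.6, 14.1 and 15.7 FPKM on glucose in DSM-21175, close to its values at pH 5.5 (-0.25 and -0.26, both called). In DSM-3286 it had 16.6, 17.0 and 15.9 FPKM on glycerol and 38.7, 41.5 and 41.5 FPKM on glucose at pH 3.5, changes from pH 5.5 of -1.72 and -1.16. The difference between strains in the pH change was 1.19 ± 0.09 (edgeR, Benjamini-Hochberg adjusted p = 2.95e-11). ARG81 was called in all 6 tests of a difference between changes. The weakest was the difference between carbon sources in the pH change (-0.28 ± 0.09), which did not pass without DSM-3286 glucose stationary pH 5.5 replicate 3 (-0.25, adjusted p = 0.0661 in edgeR's test with Benjamini-Hochberg adjustment). MCM1 itself had a different pattern: it was higher in DSM-21175 (0.45 ± 0.03), in stationary phase (0.50 ± 0.04) and at pH 3.5 (0.32 ± 0.04), with 515 to 583 FPKM in DSM-21175 on glycerol at pH 3.5 and 193 to 200 FPKM in DSM-3286 on glycerol in growth phase.

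STP3 (YALI0B05478g), a zinc finger protein, was higher on glycerol than on glucose in growth phase (0.88 ± 0.16), and this rested on DSM-3286. In DSM-21175 it had 8.13, 7.46 and 6.46 FPKM on glycerol and 7.11, 8.19 and 5.59 FPKM on glucose in growth phase, and the groups overlapped (0.14, not passing). DSM-3286 had 11.7, 12.8 and 13.4 FPKM on glycerol and 3.76, 4.94 and 4.39 FPKM on glucose, a change of 1.62. The difference of -1.48 ± 0.32 between strains was called (edgeR, Benjamini-Hochberg adjusted p = 0.00181). In stationary phase at pH 5.5, DSM-3286 on glucose was low again, with 1.55 and 4.58 FPKM from 27 and 89 reads, and these 2 libraries differ from each other. Against them stood 10.8, 12.4 and 15.8 FPKM on glycerol in that strain at pH 5.5 and 14.3, 14.0 and 14.8 FPKM on glucose at pH 3.5. STP3 was higher at pH 3.5 on glucose in both strains (1.14 in DSM-21175 and 2.16 in DSM-3286) and did not pass on glycerol (0.16 and -0.29), a difference between carbon sources of -1.71 ± 0.22. Without DSM-3286 glucose stationary pH 5.5 replicate 3 that difference was -2.21.

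GCN4 changed little for its abundance. It was lower at pH 3.5 by -0.18 ± 0.05 and lower in DSM-21175 by -0.14 ± 0.04 on average. The pH change rested on 1 of its 4 strata, and the strain change was called downward at pH 5.5 (-0.73) and upward at pH 3.5 (0.26) on glucose in stationary phase. On glucose in DSM-21175 it had 1000, 941 and 1050 FPKM at pH 3.5 and 1040, 922 and 903 FPKM at pH 5.5 (0.08, not passing), whereas in DSM-3286 on glucose it had 961, 819 and 802 FPKM at pH 3.5 and 1460 and 1660 FPKM at pH 5.5, with no overlap (-0.91). On glycerol the pH change did not pass in either strain (0.20 in DSM-21175 and -0.10 in DSM-3286), and averaged over both carbon sources the difference between strains was 0.64 ± 0.11 (edgeR, Benjamini-Hochberg adjusted p = 3.55e-05). With phase, GCN4 was higher in stationary phase in DSM-3286 on glucose (0.46) and lower in DSM-21175 on glycerol (-0.28). The growth-phase change with carbon source (0.23 ± 0.07) did not pass without the filter on low counts (0.17, adjusted p = 0.0540 in edgeR's test with Benjamini-Hochberg adjustment).

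The other 4 of the list changed by under 2-fold in each comparison. DAL81 (YALI0D02783g), a co-activator of nitrogen and amino acid uptake genes in baker's yeast, was higher in stationary phase in all 4 strata (0.98 ± 0.06). LEU3 (YALI0D13904g), the regulator of leucine synthesis, was lower at pH 3.5 in all 4 strata (-0.46 ± 0.06) and did not pass in the other 4 comparisons. CBF1 (YALI0D24167g), a methionine and centromere factor, was lower on glycerol in growth phase (-0.50 ± 0.09) and in DSM-21175 (-0.39 ± 0.05). UGA3 (YALI0D20394g), for use of gamma-aminobutyrate, was lower at pH 3.5 on average (-0.32 ± 0.07), called in 2 of 4 strata and positive in 1. As a list, 1 of 7 was higher at pH 3.5 and 6 were lower, against 34.2% and 34.3% of all genes.

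The symbols GZF2, GZF3, GZF4 and GZF5 name GATA zinc finger factors, a family that in yeasts controls genes for nitrogen sources. Averaged over strata, all 4 were lower at pH 3.5 (34.3% of all genes were called lower). For GZF4 the pH change was called in 1 of 4 strata. On glycerol in DSM-21175 GZF4 had 18.7, 18.8 and 16.4 FPKM at pH 3.5 and 19.5, 15.1 and 22.1 FPKM at pH 5.5. Of the 4, 3 were higher in stationary phase (42.9% of all genes were called higher). GZF3 (YALI0C22682g) had 130, 115 and 143 FPKM on glycerol and 103, 102 and 138 FPKM on glucose in stationary phase at pH 5.5 in DSM-21175, against 14.7, 16.9 and 20.9 FPKM and 23.6, 18 and 20.6 FPKM in growth phase. DSM-3286 had 121, 118 and 131 FPKM on glycerol and 117 and 112 FPKM on glucose in stationary phase, against 25.4, 29.7 and 27.4 FPKM and 35.8, 41.8 and 41.8 FPKM in growth phase. The stationary levels of the strains at pH 5.5 overlapped, while in growth phase every DSM-21175 library lay below every DSM-3286 library. The change with phase was 2.22 ± 0.07 (edgeR, Benjamini-Hochberg adjusted p = 8.08e-23), the largest upward change of the 45 genes in that comparison, and was larger in DSM-21175 by 0.86 ± 0.13.

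At pH 3.5 GZF3 ranged from 44.6 to 91.4 FPKM (median 64.3 FPKM, n = 12), and at pH 5.5 from 102 to 143 FPKM (median 118 FPKM, n = 11). The pH groups did not overlap (-0.90 ± 0.06, edgeR, Benjamini-Hochberg adjusted p = 1.11e-12). The strain comparison of GZF3 reversed between conditions: DSM-21175 was lower in growth phase (-0.70 on glycerol and -0.97 on glucose) and higher at pH 3.5 (0.54 and 0.74). GZF5 (YALI0E16577g) was called in all 5 comparisons. In growth phase it had 9.34, 8.25 and 10.8 FPKM on glycerol and 17.3, 19 and 21.3 FPKM on glucose in DSM-21175, and 9.41, 9.48 and 11.1 FPKM on glycerol and 23.3, 24.5 and 24.3 FPKM on glucose in DSM-3286. All 6 glycerol libraries lay below all 6 glucose libraries (-1.07 ± 0.09, edgeR, Benjamini-Hochberg adjusted p = 1.42e-11). In stationary phase at pH 5.5 GZF5 had 40.9 to 84.6 FPKM, above every growth library (1.93 ± 0.06), and there the change with carbon source was 0.82 ± 0.12 less negative than in growth phase.

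GZF2 (YALI0F17886g) was higher in DSM-21175 (0.49 ± 0.07), most on glycerol at pH 3.5, with 36.0, 37.9 and 27.8 FPKM in DSM-21175 and 16.5, 12.6 and 9.78 FPKM in DSM-3286. GZF4 (YALI0E05555g) differed from the rest in being lower in stationary phase (-0.34 ± 0.08). The change at pH 3.5 was less negative in DSM-21175 than in DSM-3286 for all 4 (GZF2 0.81 ± 0.16, GZF3 0.62 ± 0.13, GZF4 0.48 ± 0.15 and GZF5 0.58 ± 0.12, all called). Over all 45 genes this difference was positive and called for 19 and negative and called for 6, 55.6% called against 41.0% of all genes (20.9% positive and 20.1% negative), with a median of 0.26 against 0.02.

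**Figure D4:**
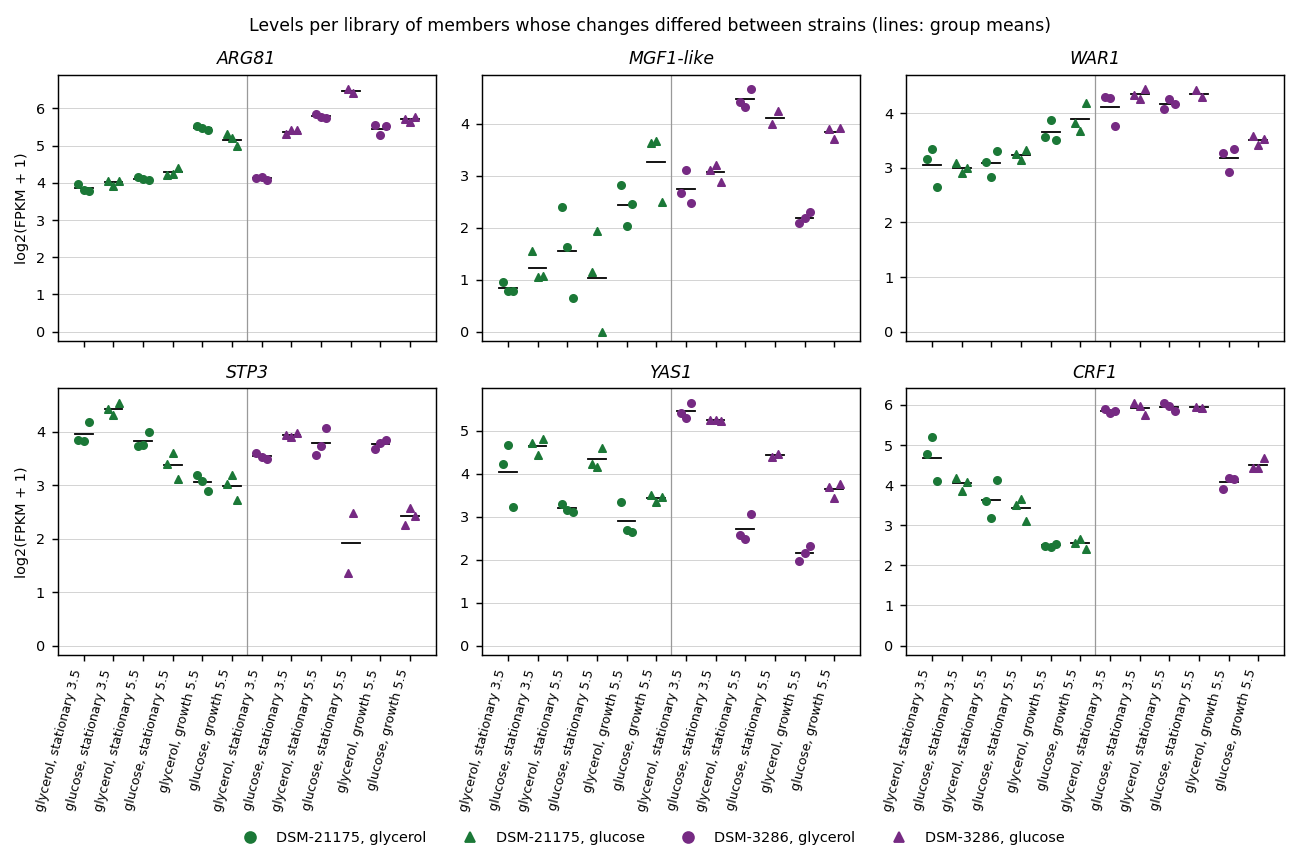
Levels per library, as log2(FPKM + 1), of ARG81, MGF1-like, WAR1, STP3, YAS1 and CRF1 in the 12 groups; colours and symbols mark strain and carbon source, and lines are group means. ARG81, WAR1 and MGF1-like are lower in DSM-21175 than in DSM-3286 in stationary phase; in growth phase on glycerol the strains overlap for ARG81 and MGF1-like, while WAR1 is higher in DSM-21175, and STP3 is low in DSM-3286 on glucose at pH 5.5, with 1.55 and 4.58 FPKM in stationary phase.

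YHP1 had few reads, and its results rest on few libraries. In DSM-21175 on glucose, replicate 3 had 32.8 FPKM in stationary phase at pH 5.5 and 22.1 FPKM in growth phase, while the other replicates had 2.14 and 2.39 FPKM and 2.39 and 3.99 FPKM. Those are among the 5 libraries that correlated less with their replicates. In the other DSM-21175 groups YHP1 had 0.972 to 8.99 FPKM, and in DSM-3286 it had 0 to 2.46 FPKM, from 0 to 22 reads a library. In DSM-3286 on glucose in growth phase the libraries had 2, 1 and 0 reads. The fitted strain change, 2.89 ± 0.45, depends on how counts near 0 are treated: it was 1.43 with limma on the deposited log2 values, and 2.25 without the 5 libraries, called each time. The change at pH 3.5, -1.54 ± 0.50, was -0.85 without the 5 libraries and -0.92 without DSM-21175 glucose stationary pH 5.5 replicate 3. The change with phase, 1.94 ± 0.60, was 1.32 without that library and 0.83 with limma. Taken 1 stratum at a time, this phase change was called in 0 of 4 strata. With carbon source in stationary phase YHP1 did not pass (0.72 ± 0.50) but was higher on glycerol without the 5 libraries (1.47, edgeR, Benjamini-Hochberg adjusted p = 1.1e-05).

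Among regulators of metal use, ZAP1 (YALI0D23749g), the zinc regulator of baker's yeast, was higher in stationary phase (1.19 ± 0.10), lower on glycerol in growth phase (-0.83 ± 0.14) and lower at pH 3.5 (-0.60 ± 0.10). On glycerol in DSM-3286 it had 98.0, 100 and 105 FPKM in stationary phase at pH 5.5 and 33.5, 31.7 and 31.4 FPKM in growth phase, with no overlap. MAC1 (YALI0E31669g), the copper-sensing factor, was higher in stationary phase (0.49 ± 0.06); its strain change was called upward on glycerol in growth phase (0.34) and downward on glycerol at pH 3.5 (-0.84).

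CRF1 (YALI0B08206g) is known in Y. lipolytica for copper resistance, and the same symbol stands for a ribosomal gene corepressor in baker's yeast. It had 26.3, 35.8 and 16.1 FPKM on glycerol in DSM-21175 at pH 3.5 and 11.2, 8.00 and 16.6 FPKM at pH 5.5, against 58.7, 54.7 and 56.7 FPKM and 64.8, 62.1 and 57.1 FPKM in DSM-3286. In growth phase on glycerol it had 4.62, 4.50 and 4.82 FPKM in DSM-21175 and 13.9, 17.1 and 16.8 FPKM in DSM-3286. DSM-21175 was lower, without overlap, in each of the 6 strata, by -2.01 ± 0.09 on average (edgeR, Benjamini-Hochberg adjusted p = 4.19e-18); 7 of the 45 genes, and 7.33% of all genes, were called lower in all 6. CRF1 was higher at pH 3.5 in DSM-21175 (1.15 on glycerol and 0.68 on glucose) and did not pass in DSM-3286 (-0.11 and -0.07), a difference of 1.01 ± 0.21. It was higher in stationary phase in all 4 strata (1.41 ± 0.11).

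SFP1 (YALI0F11487g), the activator of ribosome biogenesis genes in baker's yeast, was higher in stationary phase in all 4 strata (1.05 ± 0.07), with 118 to 241 FPKM in stationary phase at pH 5.5 and 60 to 88.3 FPKM in growth phase. SWI1 (YALI0E25960g), a subunit of the SWI/SNF chromatin remodeller, was lower at pH 3.5 in all 4 strata (-0.71 ± 0.04), and its stationary change with carbon source was 0.07 at pH 3.5 and 0.10 at pH 5.5 in DSM-21175 and -0.51 and -0.49 in DSM-3286, a difference of 0.59 ± 0.09.

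YAS1 (YALI0C02387g), which in Y. lipolytica activates genes of alkane use, showed the largest upward change with low pH of the 45 genes. In DSM-21175 it had 17.5, 24.5 and 8.32 FPKM on glycerol and 25, 20.7 and 27.1 FPKM on glucose at pH 3.5, against 8.85, 7.88 and 7.63 FPKM and 17.6, 16.9 and 23.3 FPKM at pH 5.5. In DSM-3286 it had 41.5, 38.1 and 48.9 FPKM on glycerol and 37.1, 37.1 and 36.3 FPKM on glucose at pH 3.5, against 4.94, 4.58 and 7.34 FPKM and 20 and 20.9 FPKM at pH 5.5. The pH groups were apart in DSM-3286. In DSM-21175 they overlapped through replicate 3 on glycerol at pH 3.5 (8.32 FPKM) and replicate 3 on glucose at pH 5.5 (23.3 FPKM), both among the 5 libraries that correlated less, and were apart on both carbon sources without them. Over the 4 strata YAS1 changed by 1.29 ± 0.13 (edgeR, Benjamini-Hochberg adjusted p = 9.4e-10). The change was 1.42 ± 0.26 larger on glycerol than on glucose and 1.15 ± 0.26 smaller in DSM-21175 than in DSM-3286. Without the 5 libraries the change was 1.40 and the difference between strains -0.93, both still called. YAS1 was also lower on glycerol than on glucose, by -1.07 ± 0.20 in growth phase and by -0.84 ± 0.13 in stationary phase. In growth phase this was called in DSM-3286 (-1.62) and did not pass in DSM-21175 (-0.52); the difference between strains did not pass (1.11 ± 0.40, edgeR, Benjamini-Hochberg adjusted p = 0.0755). In stationary phase the strata at pH 5.5 were called (-1.24 and -1.85) and those at pH 3.5 were not (-0.53 and 0.27).

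PTR3 (YALI0D02673g), part of the sensor of outside amino acids in baker's yeast, and NPR2 (YALI0F02783g), which restrains TORC1 when nitrogen is short, were both higher in stationary phase in all 4 strata. PTR3 had 54.3, 55.1 and 46.5 FPKM on glycerol in stationary phase at pH 5.5 in DSM-21175 and 24.8, 22.9 and 22.6 FPKM in DSM-3286, against 11, 9.70 and 12.2 FPKM and 6.67, 8.32 and 8.06 FPKM in growth phase. The phases did not overlap in either strain (1.80 ± 0.06, edgeR, Benjamini-Hochberg adjusted p = 1.69e-21). At pH 3.5 PTR3 on glycerol had 46.5, 48.2 and 55.1 FPKM in DSM-21175 (a change from pH 5.5 of -0.03, not passing) and 51.3, 51.0 and 51.7 FPKM in DSM-3286 (1.13). On glucose the pH change did not pass in either strain (0.17 in DSM-21175 and 0.23 in DSM-3286). On glycerol the strains were apart at pH 5.5 and overlapped at pH 3.5 through 1 of the 5 libraries that correlated less, DSM-21175 replicate 3 (55.1 FPKM). Averaged over both carbon sources, the difference between strains in the pH change was -0.61 ± 0.12, and -0.77 without the 5 libraries. NPR2 was higher in stationary phase by 1.34 ± 0.04 and higher in DSM-21175 in all 6 strata (0.50 ± 0.04), the only one of the 45 called upward in all of them (6.88% of all genes were).

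MGF1-like, for which no role is given here, had the largest difference between strains in the phase change. In stationary phase at pH 5.5 it had 4.28, 2.10 and 0.569 FPKM on glycerol and 1.20, 2.84 and 0 FPKM on glucose in DSM-21175, against 20.6, 19.0 and 24.5 FPKM and 14.9 and 17.9 FPKM in DSM-3286. In growth phase it had 6.06, 3.08 and 4.50 FPKM on glycerol and 11.5, 11.7 and 4.62 FPKM on glucose in DSM-21175, and 3.26, 3.53 and 3.96 FPKM on glycerol and 13.9, 12.1 and 14.1 FPKM on glucose in DSM-3286. The strains were apart in stationary phase and overlapped on glycerol in growth phase through DSM-21175 replicate 2 (3.08 FPKM), 1 of the 5 libraries that correlated less. In DSM-21175 the change with phase was called downward on glucose (-2.77), and in DSM-3286 upward on glycerol (2.47). Averaged over both carbon sources the difference was -3.28 ± 0.56 (edgeR, Benjamini-Hochberg adjusted p = 1.55e-05), -3.07 without the 5 libraries, and -3.96 without DSM-21175 glucose stationary pH 5.5 replicate 2. Reads in DSM-21175 stationary libraries at pH 5.5 were 86, 43 and 12 on glycerol and 27, 75 and 0 on glucose, and the library with 0 reads, replicate 3, is 1 of the 5 that correlated less. MGF1 (YALI0D01573g) was higher in stationary phase in all 4 strata (0.95 ± 0.12).

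OTU1 (YALI0D13046g) was higher in stationary phase in DSM-21175, with 110, 117 and 104 FPKM on glycerol against 38.1, 34.0 and 40.1 FPKM in growth phase (1.52). In DSM-3286 on glycerol it had 46.2, 62.6 and 51.0 FPKM in stationary phase at pH 5.5 and 49.6, 51.7 and 51.7 FPKM in growth phase (-0.02, not passing). On glucose it had 106, 105 and 105 FPKM in stationary phase and 38.7, 45.5 and 40.9 FPKM in growth phase in DSM-21175 (1.33), and 62.6 and 78.9 FPKM in stationary phase and 55.5, 54.3 and 53.9 FPKM in growth phase in DSM-3286 (0.37, called). The phases overlapped on glycerol in DSM-3286 and were apart in the other 3 strata, and over both carbon sources the difference between strains was 1.25 ± 0.09 (edgeR, Benjamini-Hochberg adjusted p = 5.76e-12). OTU1 was also the only one of the 45 called higher at pH 3.5 in all 4 strata (0.46 ± 0.05), as 5.37% of all genes were. In the RefSeq gene order it lies next to BUD20, and reads shared between neighbours were not examined.

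YJU6 (YALI0F03630g), for which no role is given here, was the only gene with a 2-fold fall in stationary phase. It had 6.06 to 14.8 FPKM in stationary phase at pH 5.5 (median 9.63 FPKM, n = 11) and 19.4 to 35.8 FPKM in growth phase (median 27.2 FPKM, n = 12), with no overlap (-1.42 ± 0.08, edgeR, Benjamini-Hochberg adjusted p = 9.02e-16). It was lower in DSM-21175 in all 6 strata (-0.83 ± 0.07) and higher at pH 3.5 (0.53 ± 0.08), where the change was larger in DSM-3286 (difference -0.56 ± 0.17). The pH change of YJU6 was called in 2 of 4 strata. On glycerol in DSM-21175 the pH groups overlapped, with 8.00, 6.73 and 11.4 FPKM at pH 3.5 and 8.51, 8.92 and 6.62 FPKM at pH 5.5. ELF1 (YALI0E10131g), a transcription elongation factor in baker's yeast, was lower in stationary phase too, with 112 to 211 FPKM in stationary phase at pH 5.5 and 228 to 346 FPKM in growth phase (-0.91 ± 0.07). YJU6 and ELF1 were the 2 genes of the 45 called lower in stationary phase in all 4 strata, while 17 were called higher in all 4; of all genes, 21.4% were called lower and 22.0% higher in all 4.

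Of the other genes, SEF1 (YALI0D05005g), a zinc cluster factor, was lower on glycerol in growth phase in both strains, with 6.16 to 9.63 FPKM on glycerol and 14.2 to 19.7 FPKM on glucose (-1.06 ± 0.08). SEF1 was also lower on glycerol in stationary phase on average (-0.42 ± 0.06), called in 2 of 4 strata. KAP122 (YALI0E29909g) was higher on glycerol in growth phase (0.38 ± 0.07) and lower on glycerol in stationary phase (-0.32 ± 0.05), a difference between phases at pH 5.5 of -0.87 ± 0.11. Its stationary change was called in 2 of 4 strata and was positive in 1. At pH 3.5 in DSM-21175 KAP122 had 9.06, 9.27 and 8.32 FPKM on glycerol and 8.13, 8.58 and 8.00 FPKM on glucose. At pH 5.5 in DSM-3286 it had 5.87, 6.06 and 6.16 FPKM on glycerol and 10.2 and 10.1 FPKM on glucose. PRP9 (YALI0F09493g) and TFB2 (YALI0F30173g), a subunit of the general factor TFIIH, were higher on glycerol in growth phase (0.35 ± 0.06 and 0.35 ± 0.08), higher in DSM-21175 (0.40 ± 0.04 and 0.56 ± 0.05) and lower in stationary phase (-0.50 ± 0.05 and -0.35 ± 0.06). The TFB2 change with carbon source in growth phase was called in 1 of 2 strata, and its strain change in 4 of 6. For TFB2 the fall in stationary phase did not pass in DSM-21175 (-0.07 on glycerol and 0.09 on glucose) and was called in DSM-3286 (-1.02 and -0.41), a difference between strains of 0.73 ± 0.12 (edgeR, Benjamini-Hochberg adjusted p = 7.32e-06). DEF1 (YALI0C16863g), which acts on stalled RNA polymerase II in baker's yeast, was lower on glycerol in growth phase (-0.66 ± 0.12) and did not pass in stationary phase (0.03 ± 0.08). ECM5 was lower at pH 3.5 (-0.44 ± 0.06), and its strain change of 0.13 ± 0.05 was lost on leaving out 6 of the 35 libraries, 1 at a time, with adjusted p up to 0.0869 (edgeR, Benjamini-Hochberg).

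**Figure D5:**
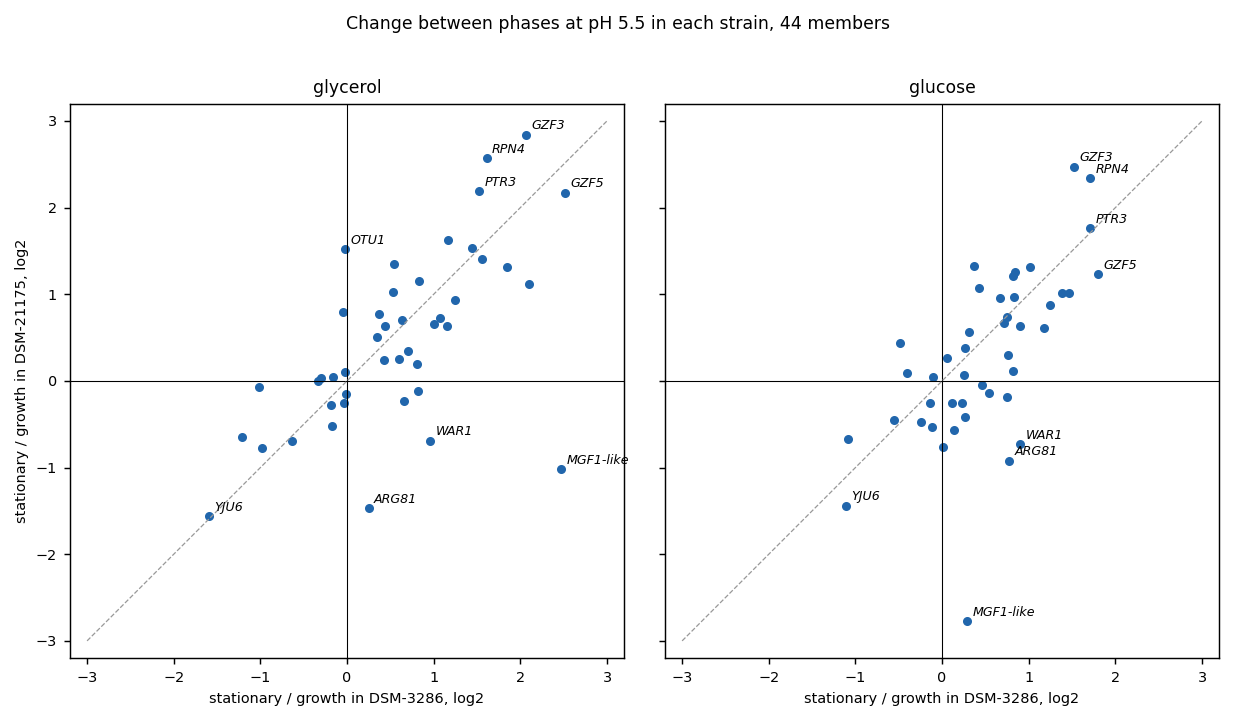
Change from growth to stationary phase at pH 5.5 (log2) in DSM-21175 (y axis) and DSM-3286 (x axis), on glycerol (left) and glucose (right), for 44 symbol-named genes; YHP1 is left out for its low reads, and the dashed line marks equal change. GZF3, GZF5, PTR3 and RPN4 lie at the upper right in both panels, and ARG81, WAR1 and MGF1-like lie below 0 in DSM-21175 and above 0 in DSM-3286.

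Across the 45 genes, the difference between strains was called for 26 in the phase change (57.8%, against 58.2% of all genes) and for 25 in the pH change, as given above. Of the 26, 11 had a larger or more positive change in DSM-21175 and 15 the reverse. The difference between strains was called for 13 in the stationary carbon source change (28.9%, against 31.1%) and for 3 in the growth-phase one (6.67%, against 9.82%): USV1, ARG81 and STP3. The carbon source change differed between phases for 18 (40.0%, against 49.0%) and the pH change differed between carbon sources for 11 (24.4%, against 19.5%). Strata of the strain comparison were called in opposite directions for 12 genes (ELF1, ERT1, GCN4, GZF3, GZF4, MAC1, OTU1, RDS2, SEF1, STP3, WAR1 and YAS1), so that their average over strata describes no single condition; 22.3% of all genes had such calls. With phase this held for 7, against 13.8% of all genes: ARG81, CBF1, GCN4, MGF1-like, SEF1, SKN7 and WAR1.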

How the data were processed

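RNA was extracted from 35 bioreactor samples, and strand-specific libraries of polyA-selected RNA were sequenced, per the labels' protocols. Tools listed in the submitters' processing notes, with no role or order, are edgeR, featureCounts 1.5.1 and BWA 0.7.12-r1039. Neither the genome build nor the annotation, nor whether counting used the strand, is given in the sources used here. Raw read counts per gene were used as deposited by the authors. The authors also deposited log2(FPKM + 1) values, which came within 0.02 of values recomputed from the counts and the effective gene lengths for 99.9% of entries. Each symbol was tied to 1 locus tag by its log2 values (largest difference 0.005, next best match at least 0.25 away). RefSeq's assembly table, ASM176148v1, held 44 of the 45 gene IDs and was used for gene order only.

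Counts were filtered with filterByExpr over the 12 groups, TMM-scaled (factors 0.865 to 1.176) and tested with edgeR 4.0.16 in R 4.3.3, quasi-likelihood, without a replicate block, over 6537 genes with 23 residual degrees of freedom. The biological coefficient of variation was 14.8%. Contrasts averaged over strata, and 6 further contrasts tested differences between changes. The script was tested on simulated data. Replicates differed by more than sampling noise in all 34 pairs. Alternatives were RLE scaling, no filter, DESeq2 1.42.0, limma 3.58.1 on the log2 values, a replicate block, only the libraries compared, no libraries that correlated less, and leaving out each library.

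The genes and lists were chosen with earlier results of these data known. Named with test values were up to 6 called genes each way per comparison, up to 3 of each sign per difference, the 3 highest and 3 lowest in level, and genes whose strata were called in opposite directions; other values were chosen after they were seen.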

Additional observations from a re-analysis of the deposited data

Results flagged for a closer look

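The results below are differences between 2 changes that passed edgeR's quasi-likelihood test of the difference itself, with Benjamini-Hochberg adjustment over all genes, and that were among the largest for their contrast. Each value is on the log2 scale; groups of 2 or 3 libraries were too small to test for outlying samples.

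Between strains, as DSM-21175 minus DSM-3286, the growth-phase change with carbon source differed by 0.94 for USV1, 0.55 for ARG81 and -1.48 for STP3. The stationary change with carbon source differed by 0.81 for ARG81, 0.59 for SWI1, 0.55 for GZF5, -0.83 for STP3 and -0.34 for ELF1. The value for STP3 was -1.33 without DSM-3286 glucose stationary pH 5.5 replicate 3. ELF1 passed at an adjusted p of 0.0493 in edgeR's test with Benjamini-Hochberg adjustment and did not pass on leaving out any of 23 of the 35 libraries, 1 at a time. It did not pass with a replicate block (-0.33, adjusted p = 0.0547) or with only the libraries compared (adjusted p = 0.0752), both in edgeR's test with Benjamini-Hochberg adjustment.

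The pH change differed between strains by 1.19 for ARG81, 1.01 for CRF1, 1.01 for USV1, -1.15 for YAS1, -0.61 for PTR3 and -0.56 for YJU6. The phase change differed by 1.25 for OTU1, 0.89 for STP3, 0.86 for GZF3, -3.28 for MGF1-like, -1.71 for ARG81 and -1.63 for WAR1. The value for STP3 was 1.39 without DSM-3286 glucose stationary pH 5.5 replicate 3.

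Between phases, as stationary minus growth at pH 5.5, the change with carbon source differed by 1.97 for MGF1-like, 0.82 for GZF5, 0.74 for DEF1, -0.87 for KAP122, -0.53 for ARG81 and -0.44 for GCN4. Between carbon sources, as glycerol minus glucose, the pH change differed by 1.42 for YAS1, 0.58 for RSF2, 0.49 for SFP1, -1.71 for STP3 and -0.28 for ARG81.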

How the results depend on the processing

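Of 127 named values, 115 stayed on the same side of the threshold under every alternative, 7 were lost under at least 1 and 0 changed sign while called. Glycerol against glucose in stationary phase gave 4 genes higher, 2 with limma on the deposited log2 values and 1 to 4 on leaving out each library. The difference between strains of the growth-phase carbon source change was called for 3 genes, 6 with DESeq2, 5 with only the libraries compared, 8 without the 5 libraries that correlated less, and 3 to 6 on leaving out each library (6 without DSM-21175 glycerol growth replicate 2). That of the stationary carbon source change was called for 13, and for 8 to 16 on leaving out each library, with 8 without DSM-3286 glucose stationary pH 5.5 replicate 3 or DSM-21175 glycerol stationary pH 5.5 replicate 3. The difference between carbon sources of the pH change was called for 11, 18 without the 5 libraries, and 7 to 12 on leaving out each library (7 without DSM-3286 glucose stationary pH 5.5 replicate 3). The other counts stayed within 1.5 times of the value given under the alternatives run. The causes were not tested.

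Replicate numbers were not taken to pair the samples: of 56 same-numbered pairs, 11 had deviations correlated above 0.1 (range -0.493 to 0.446). In 2 of 20 strata, both of DSM-21175, every pair did (carbon source in stationary phase at pH 5.5, and phase on glucose). With a replicate block, 3 genes were higher on glycerol in stationary phase, and the differences between strains were called for 12 genes in the stationary carbon source change, 24 in the pH change and 25 in the phase change. Of the named values, the block ended the calls of CRF1 in the stationary carbon source change and of ELF1 in its difference between strains, and no other. Depth limits YHP1 and MGF1-like, whose lowest libraries held 0 reads.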
